A study of Saccharomyces cerevisiae with 29 samples.

Results

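Deletion of XRN1 was compared with wild type in budding yeast arrested in G1. The comparison used 6 libraries, 2 from xrn1Δ cells and 4 from wild-type cells, of the 29 samples in the series, and every row of the deposited count table. The fit also took in G1 libraries of the rad50, mre11, rrp6 and ku70 deletions and of an mre11 point mutant. Wild-type libraries labelled MMS were in it too, which made 17 RNA libraries in 8 groups. The libraries were taken by their strain labels. Gene lists are described by counts and medians and were not tested as lists. The xrn1Δ strain carried xrn1::ADE2, so the deleted gene was replaced by the adenine synthesis marker ADE2. The xrn1Δ and wild-type strains were MATa and RAD5. They shared the markers ade2-1 and trp1-1, and also can1-100, ura3 and GAL, as well as leu2-3, 112 and his3-11, 15. Cells grew in rich medium with 2% glucose and were held in G1 for 170 min at 25°C with 5 µg per ml of the mating pheromone α-factor. Total RNA was depleted of ribosomal RNA and sequenced strand by strand. The labels do not say whether the libraries of a strain came from separate cultures or clones. The p-values of the fit thus measure only the spread between libraries of a group, pooled over all 8 groups. This spread may be technical.

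Xrn1 is the main 5′-to-3′ exonuclease of the yeast cytoplasm. It degrades messenger RNA after the poly(A) tail has been shortened and the cap removed by Dcp1 and Dcp2, and it also removes aberrant messages, rRNA processing fragments and many noncoding transcripts. The annotation of the table includes 3 classes of noncoding RNA named for how they were found. They are Xrn1-sensitive unstable transcripts (XUTs), stable unannotated transcripts (SUTs) and cryptic unstable transcripts (CUTs). CUTs are mainly degraded in the nucleus by the exosome with its subunit Rrp6. Xrn1 has also been described as acting on transcription, and steady-state levels such as these do not separate synthesis from decay.

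The XRN1 row (YGL173C, chr7:175527-180113, minus strand, build R64) held 9.84 and 15.8 normalised reads in the 2 xrn1Δ libraries, against 11334, 10971, 10363 and 11927 in the 4 wild-type libraries. A normalised read is a read count divided by 1 factor per library. The deleted gene was thus near 0 in both mutant libraries. ADE2 (YOR128C), the marker, had 2620 and 2808 normalised reads in xrn1Δ cells, against 535, 641, 664 and 690 in wild-type cells, a log2 difference of 2.10 ± 0.16 (standard error, adjusted p = 1.3e-07). Read totals over protein-coding rows were 29227193 and 32198080 in xrn1Δ cells, and 11070232 to 22876971 in wild-type cells. The 2 xrn1Δ libraries resembled each other more (Pearson r = 0.998 over nuclear coding rows) than any 2 wild-type libraries did (r = 0.960 to 0.989). Wild-type replicate 1 stood apart: the G1 and S phase genes of a list of 40 averaged 1.39 log2 units above the wild-type mean there, and the pheromone-response genes 0.98 below it. RNR1, encoding ribonucleotide reductase, had 15604 normalised reads in that library, against 769 to 933 in the other 3 wild-type libraries and 635 and 712 in xrn1Δ cells.

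Differences were tested with limma on log2(value + 1) over all rows with a mean of at least 10, and the p-values were adjusted over all of them (Benjamini-Hochberg, threshold 0.05). Of 5580 protein-coding rows tested, 1961 rose (35.1%) and 1831 fell (32.8%) in xrn1Δ cells. The 2 xrn1Δ libraries lay outside the range of the 4 wild-type libraries in 77.5% of these rows. These counts depend on the scaling. On the deposited scale the median nuclear coding row differed by 0.07. The nuclear coding total was 10650925 and 10838437 normalised reads in xrn1Δ cells, against 20875558, 18212085, 17610841 and 17774071 in wild-type cells. When libraries were instead set to equal coding totals, the median nuclear coding row moved to 0.86, and 3625 coding rows rose and 770 fell. No spike-in was used here to choose between the scales. All values below are on the deposited scale, and the value under equal coding totals is given for each gene list described here whose median turns round.

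The change of an mRNA followed its abundance in wild type. In 10 equal bins of wild-type level, the median log2 change was 0.86 in the lowest bin and declined in every step through 0.67, 0.60, 0.41, 0.25, 0.12, −0.16, −0.39 and −0.64 to −1.47 in the highest bin. In the lowest bin 298 of 556 rows rose and 64 fell, and in the highest 14 of 557 rose and 490 fell. The median row of the highest bin was thus 2.78-fold lower in xrn1Δ cells, and that of the lowest 1.82-fold higher. Both xrn1Δ libraries gave this slope, with −1.49 and −1.45 in the highest bin and 0.89 and 0.83 in the lowest. Wild-type replicate 1 differed from the wild-type mean in the same bins by 0.22 and −0.16, a slope of the opposite sign and smaller size. With bins set by the mean of the other G1 mutants, which uses no wild-type value, the medians ran from 0.72 to −1.40. Across 5561 nuclear coding rows the log2 change and the wild-type level had Spearman's rho = −0.58, and rho = −0.66 with the level per base; rows share libraries and are not independent replicates.

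The narrower range of mRNA levels was visible without any scaling between libraries. The 100 most abundant nuclear mRNAs took 24.8% of coding reads in each xrn1Δ library, against 35.2% to 39.1% in the wild-type libraries. The 10 most abundant took 8.01% and 7.98% in xrn1Δ cells, against 12.5% to 13.5% in wild-type cells. The standard deviation of log2 level over nuclear coding rows was 1.87 and 1.92 in xrn1Δ cells, against 2.22 to 2.38 in wild-type cells. The groups did not overlap in any of these measures; the exact two-sided permutation test gave p = 0.133 for each, the smallest value that 2 against 4 libraries allow. The same share in the 9 libraries of the other G1 mutants ran between 31.0% and 35.5% for the top 100.

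**Figure D1:**
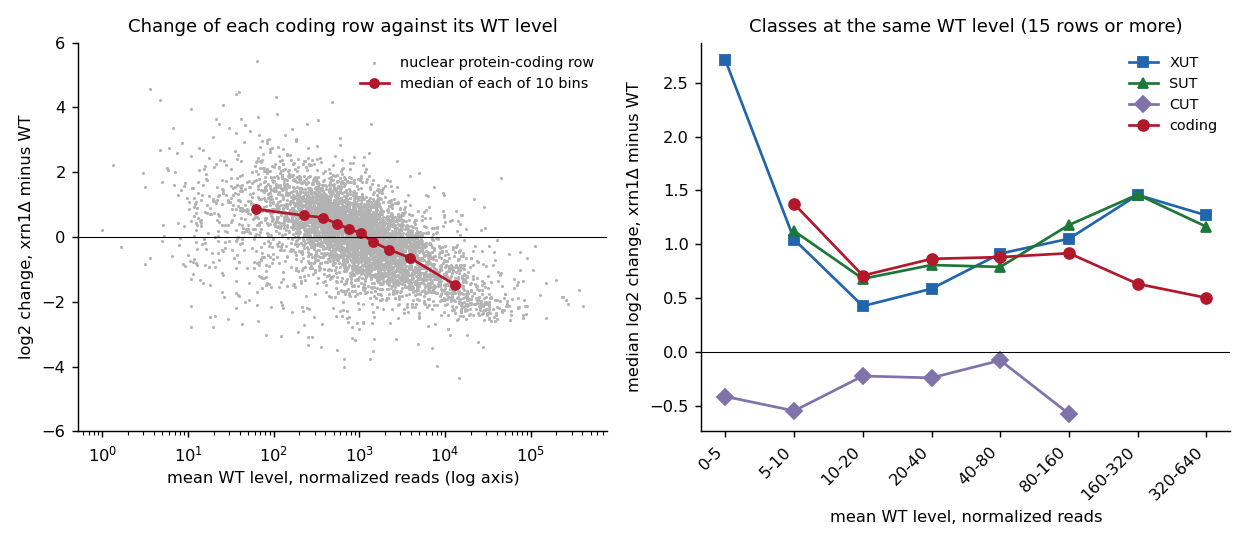
Left, log2 change of each nuclear coding row (xrn1Δ minus WT) against its mean WT level on a log axis, with the median of each of 10 equal bins, which declines from 0.86 to −1.47. Right, the median change of XUT, SUT, CUT and coding rows in the same ranges of WT level; XUT and SUT rows lie near or below coding rows at 5 to 80 normalised reads and above them from 80, and CUT rows lie below 0 throughout.

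On the deposited scale the messages of the 5′-to-3′ decay pathway itself went both ways. Of 18 genes for decapping and its activators, 5 rose and 7 fell, and their median of −0.11 was close to the 0.02 of other coding rows of like wild-type level. Set to equal coding totals, 12 rose and 3 fell, with a median of 0.68. DHH1, a helicase that activates decapping, had 7555 and 7495 normalised reads in xrn1Δ cells, against 2188, 2502, 2172 and 2297 in wild-type cells, a log2 difference of 1.72 ± 0.09 (adjusted p = 1.7e-08). EDC1, an enhancer of decapping, had 784 and 783, against 109, 116, 99.2 and 131, a 6.90-fold difference (log2 2.78 ± 0.17, adjusted p = 3.1e-08). Both genes showed no overlap between strains. DCP2, the catalytic subunit of the decapping enzyme, rose by 1.14, and the scavenger decapping factors DCS1 and DCS2 rose by 0.73 and 2.15. SBP1, an RNA-binding repressor of translation, had 3077 and 3062 normalised reads in xrn1Δ cells, against 8729, 9201, 10085 and 10073 in wild-type cells. It fell by 1.63 on the log2 scale (adjusted p = 2.5e-08). SCD6, PAT1 and 4 subunits of the Lsm ring, LSM3, LSM5, LSM6 and LSM7, also fell, by between 0.37 (PAT1) and 1.83 (LSM5). The calls of PAT1 and LSM6 were lost without xrn1Δ replicate 1 (adjusted p = 0.101 and 0.1), and that of LSM6 without replicate 2 (adjusted p = 0.11). With equal coding totals PAT1 and LSM6 rose by 0.42 and 0.38. DCP1, EDC2, EDC3, LSM1, LSM2 and LSM4 differed by between −0.39 and 0.18 and did not pass the threshold.

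Among 14 deadenylation genes 3 rose and 4 fell, against 11 and 0 with equal coding totals. PUF3, an RNA-binding protein that brings the deadenylase to mRNAs for mitochondrial proteins, had 2855 and 2971 normalised reads in xrn1Δ cells, against 1265, 1451, 1255 and 1275 in wild-type cells (log2 1.15 ± 0.14, adjusted p = 1.2e-05). CCR4, the main deadenylase, fell by 0.81. Of 14 genes for the cytoplasmic exosome and its Ski cofactors, SKI7 rose by 0.77 and 8 fell, where 36.4% of like-level rows fell. Their median of −0.33 became 0.46 with equal coding totals, with 9 higher and 0 lower. In the nuclear decay list of 15 genes, 4 rose and 5 fell, and the median of −0.13 became 0.66 with equal coding totals, with 10 higher and 1 lower. PCF11, a factor for 3′ end formation, rose by 1.42 and NRD1, which ends transcription of short noncoding RNA, by 0.99. MTR4, the helicase of the nuclear exosome, had 2249 and 2387 normalised reads in xrn1Δ cells, against 8884, 6613, 6365 and 6910 in wild-type cells, and fell by 1.62 on the log2 scale (adjusted p = 7.2e-07). RRP6 fell by 0.73 and RAT1, the nuclear relative of Xrn1, by 0.61; with equal coding totals these 2 turned round to 0.06 and 0.18.

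Most messages known as targets of nonsense-mediated decay rose. This surveillance pathway decaps mRNAs with early stop codons and hands them to Xrn1. Of 18 listed targets 12 rose and none fell, with a median of 0.56, against 0.14 for other coding rows of like level, of which 39.1% rose and 27.8% fell. STN1, a telomere-capping gene, had 1014 and 1081 normalised reads in xrn1Δ cells, against 185, 198, 256 and 244 in wild-type cells, a 4.74-fold difference (log2 2.25 ± 0.16, adjusted p = 9.2e-08). EST2, the catalytic subunit of telomerase, had 598 and 601, against 208, 179, 124 and 186 (log2 1.80 ± 0.18, adjusted p = 2.1e-06). DAL7, a malate synthase gene of allantoin use, rose by 1.79. Without xrn1Δ replicate 2 the count of targets that rose was 7. Of 6 genes for the pathway's own factors, NMD4, HRR25, NMD2 and UPF3 rose, by 0.51 (NMD2) or more. UPF3 had 816 and 848 normalised reads in xrn1Δ cells, against 365, 230, 673 and 688 in wild-type cells, and its call was lost without either xrn1Δ library or without wild-type replicate 1 or 2 (adjusted p = 0.0686 to 0.161). Among 13 genes for poly(A) binding and mRNA export, 5 rose and 7 fell, and the median of −0.46 became 0.33 with equal coding totals, with 7 higher and 4 lower. YRA1, an export adaptor whose unspliced transcript is degraded in the cytoplasm, had 19338 and 19391 normalised reads in xrn1Δ cells, against 4974, 4831, 4577 and 5434 in wild-type cells (log2 1.97 ± 0.13, adjusted p = 5.5e-08). PAB1, the poly(A)-binding protein, fell by 1.64 and NPL3, an mRNA export protein, by 2.06.

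**Figure D2:**
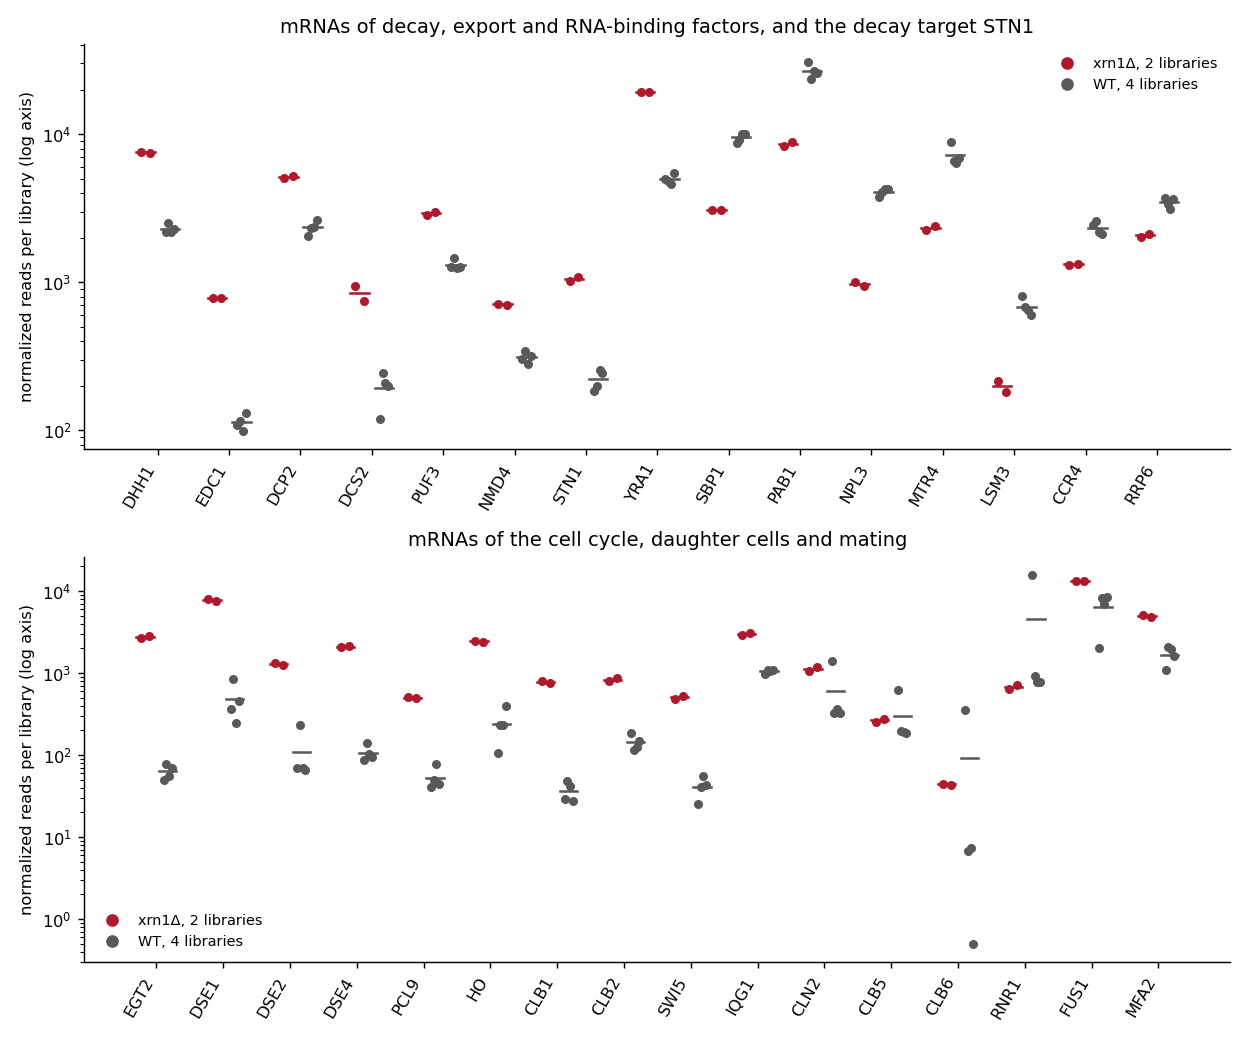
Normalised reads per library (log axis) for genes of RNA decay and export (top) and of the cell cycle and mating (bottom); red points are the 2 xrn1Δ libraries, grey points the 4 WT libraries, and bars the group means, with values under 0.5 drawn at 0.5. The 2 red points of each gene nearly coincide, and WT replicate 1 is the high grey point at CLN2, CLB5, CLB6 and RNR1.

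Of 131 ribosomal protein genes, 130 fell and none rose, with a median log2 change of −2.02, a 4.06-fold lower level. Other coding rows of like wild-type level had a median of −1.23, and 84.3% of them fell, so the direction was shared with other abundant mRNAs and the size was larger. With equal coding totals the median of the ribosomal protein genes was −1.23. RPS8A, a protein of the small subunit, had 5501 and 5820 normalised reads in xrn1Δ cells, against 39620, 27987, 31738 and 32328 in wild-type cells (log2 −2.53 ± 0.12, adjusted p = 5.2e-09). RPL40A and RPL34B of the large subunit fell by 2.24 and 2.10. The largest fall among the ribosomal proteins outside the naming rule was that of RPP2B, an acidic stalk protein, with 2896 and 2304 normalised reads against 37669, 26048, 24144 and 22719, chosen after its values were seen. Of 77 ribosome assembly genes 63 fell and none rose (median −0.91, like-level rows −0.56). Of these genes 8 rose and 22 fell with equal coding totals (median −0.12). NOP1, the methylase of small nucleolar RNPs, NOG2, a GTPase of the large subunit, and DBP2, a helicase, fell by between 1.93 and 2.24. Of 35 translation factor genes 33 fell (median −1.30), close to like-level rows at −1.17; EFT1, elongation factor 2, fell by 2.39. Glycolysis gave the same picture with 15 of 18 lower and a median of −1.31 beside −1.30 for like-level rows.

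Most genes for amino acid and sulfur synthesis also fell. Of 38 targets of Gcn4, the activator of amino acid synthesis, 33 fell (86.8%) and none rose (median −1.42, like-level rows −1.03). Of the like-level rows 73.7% fell, so much of this direction was shared with other mRNAs of such levels. ARG1, argininosuccinate synthetase, had 694 and 628 normalised reads in xrn1Δ cells, against 23745, 15246, 8446 and 10364 in wild-type cells, a 21.9-fold lower level (log2 −4.34 ± 0.31, adjusted p = 2e-07). BAT1, TRP5 and ARO3 fell by between 1.83 and 2.26. Of 25 sulfur and methionine genes 21 fell (84%), 1 rose (MUP3, a methionine permease), and the median of −1.66 compared with −0.45 for like-level rows, of which 50.8% fell. MET17, which fixes sulfide, had 2735 and 2158 normalised reads in xrn1Δ cells, against 14551, 16595, 12487 and 12816 in wild-type cells (log2 −2.53 ± 0.17, adjusted p = 6.9e-08). IMD2, an inosine monophosphate dehydrogenase for GTP synthesis whose RNA level is set by the choice of start site, had 489 and 529, against 6983, 8231, 8465 and 8402, a 15.8-fold lower level (log2 −3.97 ± 0.12, adjusted p = 2.3e-11). Its relatives IMD3 and GUA1 fell by 2.17 and 1.72. Of 19 purine genes 12 fell, and their median of −0.65 was close to the −0.56 of like-level rows. The purine list turned round with equal coding totals, with 6 higher, 5 lower and a median of 0.14. The xrn1Δ strain also carried the adenine synthesis marker ADE2. For purine and GTP synthesis genes, an effect of this marker cannot be told apart from one of the deletion, and it was not tested. Among the 15 largest falls of nuclear genes, listed after the values were seen, were also ARG3, ILV6 and CAR2 of amino acid metabolism, GAR1 of small nucleolar RNPs, and BSC1.

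**Figure D3:**
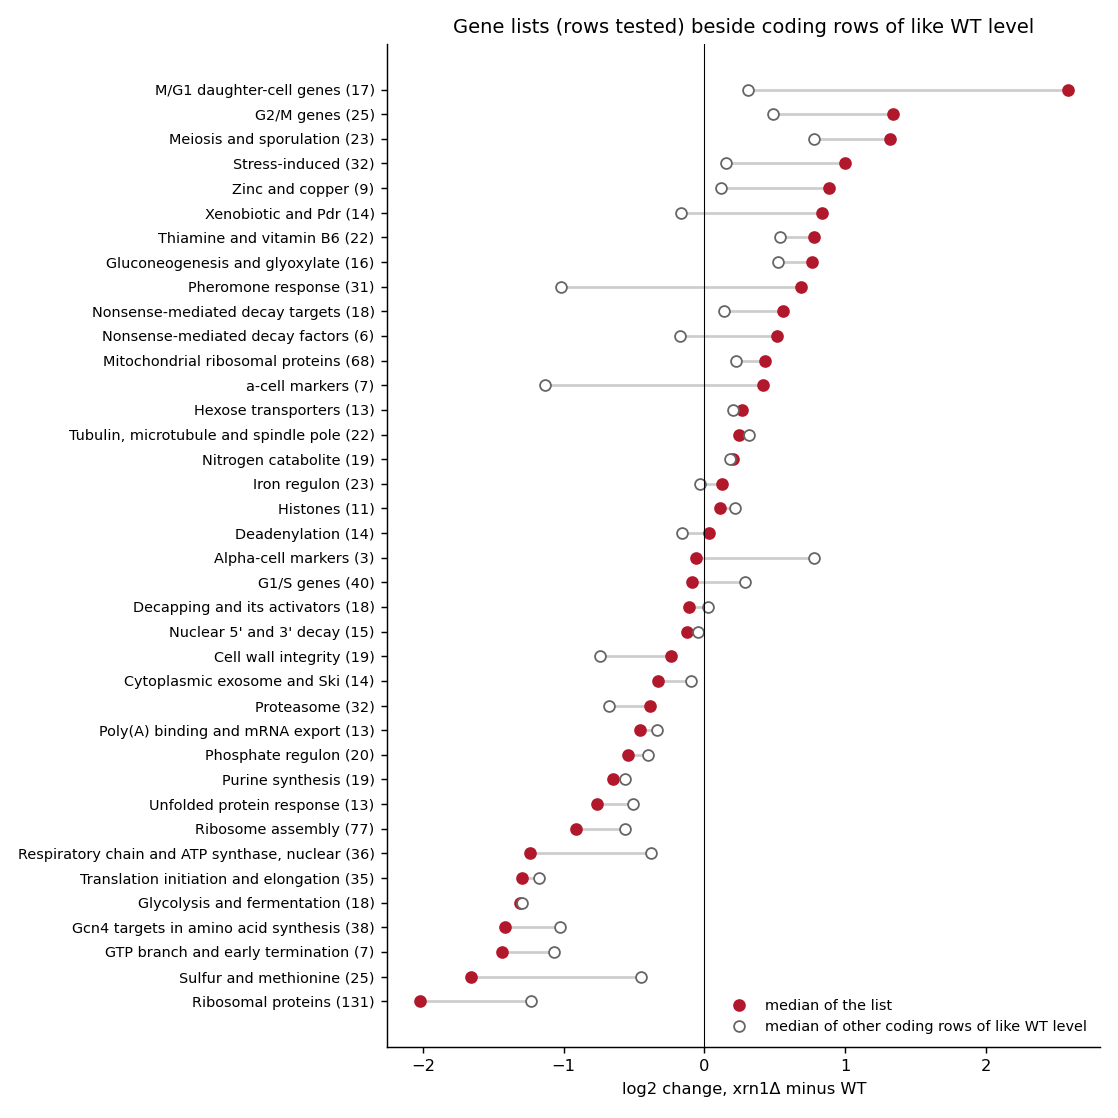
Median log2 change (xrn1Δ minus WT) of each gene list, with the number of rows tested, as filled points, and the median of other coding rows of like WT level as open points. Ribosomal proteins (−2.02) and M/G1 daughter-cell genes (2.58) mark the ends.

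RNA of the mitochondrial genome was nearly absent. COX1, a core subunit of cytochrome oxidase, had 56.1 and 81.5 normalised reads in xrn1Δ cells, against 115595, 106806, 166724 and 102501 in wild-type cells (log2 −10.78 ± 0.22, adjusted p = 2.3e-13). COB, cytochrome b, had 10.9 and 12.5, against 31056, 32525, 35638 and 18517. Of 58 mitochondrial rows, 19 had a wild-type mean of at least 1000, and these stood at 0.0318% to 0.102% of wild type in xrn1Δ cells. All 18 mitochondrial coding rows tested fell; several overlap, since the intron-encoded rows lie inside COX1 and COB and share their reads. The large mitochondrial rRNA, 21S_RRNA, had 69.2 and 116 normalised reads in xrn1Δ cells, against 271039, 232303, 235293 and 207684 in wild-type cells. RPM1, the RNA of mitochondrial RNase P, had 0.364 and 0 normalised reads in xrn1Δ cells, against 368 to 666 in wild-type cells. 1 row went the other way: Q0092, a dubious open reading frame at positions 30874 to 31014, had 286 and 379 normalised reads in xrn1Δ cells, against 2.79, 0, 0.813 and 5.48 in wild-type cells and at most 4.08 in any other mutant library. Mitochondrial rows took 0.00305% and 0.00419% of coding reads in xrn1Δ cells, against 3.25% to 5.28% in wild-type cells and 3.08% to 8.24% in the other G1 mutants. Fewer copies of the genome, fewer cells that carry it and less RNA per copy cannot be told apart in such bulk samples. The label of the strain names no mitochondrial state. Both xrn1Δ libraries lacked nearly all of this RNA, and no library of another strain did. For nuclear genes, an effect of this loss cannot be told apart from one of the deletion, and it was not tested.

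Nuclear genes for mitochondrial proteins went in both directions. Of 36 genes for the respiratory chain and ATP synthase, 30 fell (83.3%) and none rose (median −1.24, like-level rows −0.38). Coding rows of like level per base had a median of −1.07, much closer to the list, and 77.0% of them fell. COX4, a subunit of cytochrome oxidase, had 733 and 764 normalised reads in xrn1Δ cells, against 3429, 2967, 4431 and 4111 in wild-type cells (log2 −2.30 ± 0.14, adjusted p = 3.6e-08). ATP2 and ATP17 of ATP synthase fell by 2.18 and 1.56. Of 68 genes for mitochondrial ribosomal proteins, many of them bound by Puf3, 43 rose and 2 fell, with a median of 0.43, beside 0.23 for coding rows of like level and −0.25 for coding rows of like level per base. MRP49 had 1041 and 1103 normalised reads in xrn1Δ cells, against 242, 251, 452 and 304 in wild-type cells (log2 1.82 ± 0.21, adjusted p = 7e-06). MRPS8 and MRP17 rose by 1.00 and 1.06, and the 2 that fell were IMG1 (−1.85) and RSM7 (−1.64), whose calls were lost without xrn1Δ replicate 2 (adjusted p = 0.0733 and 0.134).

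**Figure D4:**
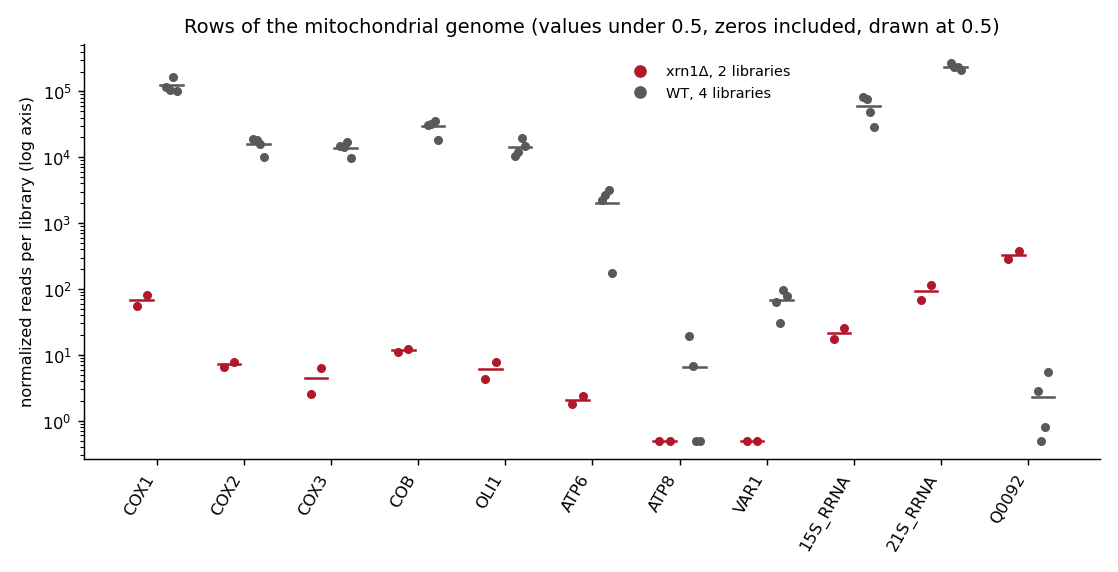
Normalised reads per library (log axis) for rows of the mitochondrial genome; red points are the 2 xrn1Δ libraries, grey points the 4 WT libraries, bars the group means, and values under 0.5 are drawn at 0.5. The mean of every row drawn but Q0092 is lower in xrn1Δ cells; COX1 has 56.1 and 81.5, against at least 102501 in WT libraries.

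Genes of late mitosis and of daughter cells were high in the arrested xrn1Δ cells. Of 17 genes transcribed at the M/G1 boundary or in daughter cells, 13 rose and none fell, with a median of 2.58, against 0.31 for like-level rows. EGT2, a gene for cell separation, had 2689 and 2806 normalised reads in xrn1Δ cells, against 50.2, 76.7, 56.1 and 69.5 in wild-type cells, a 43.5-fold difference and the largest rise among coding genes at the named levels (log2 5.44 ± 0.16, adjusted p = 2e-11). DSE1, DSE2 and DSE4, daughter-specific genes for septum removal, rose by 4.17, 3.79 and 4.32. PCL9, an M/G1 cyclin, rose by 3.26, and HO, the mating-type endonuclease of mother cells, by 3.48. Of 25 G2/M genes 20 rose and none fell (median 1.34, like-level rows 0.49). The B-type cyclin CLB1 had 795 and 765 normalised reads in xrn1Δ cells, against 29.3, 47.7, 42.3 and 27.4 in wild-type cells (log2 4.41 ± 0.29, adjusted p = 5.3e-08). CLB2 had 799 and 865, against 188, 114, 125.2 and 149, and SWI5, the activator of M/G1 genes, 487 and 525, against 25.1, 40.9, 55.3 and 43.0. CDC20, which triggers anaphase, rose by 0.68. None of these genes overlapped between strains. Without wild-type replicate 1 the counts were 13 of 17 and 21 of 25.

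For genes of S phase entry the counts depended on wild-type replicate 1 and on the scaling. Of 40 G1/S genes 2 rose, HCM1 and SWI4, and 2 fell. Without that library 8 rose and 2 fell, and with equal coding totals 13 rose and 1 fell, with the median at 0.70 in place of −0.09. The list averaged 0.12 and 0.13 log2 units above the wild-type mean in xrn1Δ cells, against 1.39 in wild-type replicate 1 and −0.59 to −0.37 in the other 3. The call of SWI4 was lost without any 1 of the other 5 xrn1Δ and wild-type libraries (adjusted p = 0.0773 to 0.145). CLN2, a G1 cyclin, had 1060 and 1186 normalised reads in xrn1Δ cells, against 1423, 324, 366 and 327 in wild-type cells, so that only wild-type replicate 1 exceeded the mutant. CLB5, CLB6, RNR1, HTA1 and HTB1 did not pass the threshold (adjusted p = 0.0695 to 0.951). A different share of cells in a stage and a different amount of each RNA per cell cannot be told apart here. Several mitotic genes were also higher than the mean of the other G1 mutants, a contrast in which 32.7% of coding rows were higher. The difference was 2.32 for EGT2, 2.20 for CLB1 and 1.04 for SWI5 (adjusted p = 4.8e-08, 9.3e-06 and 0.0031). Against those mutants 11 of the 17 M/G1 genes and 19 of the 25 G2/M genes were higher, and 1 of each list was lower. Those mutants differed among themselves. The G2/M list averaged 1.60 and 1.61 log2 units above the wild-type mean in xrn1Δ cells, 1.36 and 1.18 in rad50, 1.78 and 1.17 in mre11, and 0.17 to 0.54 in the other 5 libraries. 1 mre11 library thus lay above xrn1Δ. The M/G1 list averaged 2.46 and 2.42 in xrn1Δ cells and 0.80 to 1.93 in the other G1 mutants, with no overlap.

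MFA2, an a-factor gene, had 5079 and 4796 normalised reads in xrn1Δ cells, against 1077, 2060, 1957 and 1594 in wild-type cells (log2 1.60 ± 0.24, adjusted p = 6.4e-05). STE2, the α-factor receptor, AGA2, an agglutinin subunit, and STE6, the a-factor transporter, rose by 0.91, 1.09 and 0.42. The call of STE6 was lost without any 1 of the xrn1Δ and wild-type libraries other than wild-type replicate 1 (adjusted p = 0.0614 to 0.186). MFA1, BAR1 and ASG7 differed by −0.19, 0.21 and −0.50 and did not pass. Of 4 α-cell markers 3 were tested, and 1 rose (SAG1) and 1 fell (MF(ALPHA)2). STE3 stood at 16.4 and 12.1 normalised reads in xrn1Δ cells, against 11.9 to 22.0 in wild-type cells, and MF(ALPHA)1 was at 0 to 4.07 in every library. SAG1 rose by 2.41, with 1709 and 1702 normalised reads in xrn1Δ cells, against 259 to 384 in wild-type cells, but differed by 0.15 from the other G1 mutants (adjusted p = 0.52). Of 31 pheromone-response genes 8 rose and none fell, with a median of 0.68, where like-level rows had −1.02. The list averaged 0.65 and 0.63 log2 units above the wild-type mean in xrn1Δ cells, against −0.98 in wild-type replicate 1 and 0.18 to 0.45 in the other 3 wild-type libraries. Without that replicate 7 rose. FUS1, a cell fusion gene, had 13421 and 13301 normalised reads in xrn1Δ cells, against 2040, 8222, 6900 and 8383 in wild-type cells; the groups did not overlap, but the difference of 1.26 ± 0.70 did not pass (adjusted p = 0.135).

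Of 32 stress-induced genes 15 rose and HOR7 fell (a call lost without xrn1Δ replicate 2, adjusted p = 0.14), with a median of 1.00 beside 0.15 for like-level rows. Against the other G1 mutants 5 rose and 8 fell, with a median of 0.06. TSL1, a trehalose synthesis gene, had 3198 and 2850 normalised reads in xrn1Δ cells, against 325, 740, 799 and 612 in wild-type cells (log2 2.36 ± 0.32, adjusted p = 4.3e-05), but differed by 0.57 from the other G1 mutants (adjusted p = 0.111). In the drug-response list of 14 genes 7 rose and 3 fell. PDR5, a drug efflux pump, had 155906 and 159552 normalised reads in xrn1Δ cells, against 39476, 50798, 42236 and 45764 in wild-type cells, a 3.54-fold rise of an mRNA already abundant in wild type (log2 1.83 ± 0.14, adjusted p = 2e-07). Coding rows of its bin had a median of −1.47. Its regulator PDR3 rose by 1.85. Of 20 phosphate genes 3 rose and 8 fell (median −0.54, and 0.25 with equal coding totals). For 23 iron genes the counts were 6 and 3, for 19 nitrogen genes 8 and 2, and for 13 hexose transporters 6 and 3. In this order, 15%, 26.1%, 42.1% and 46.2% of the lists rose. Like-level rows rose in 23.98%, 31.8%, 39.2% and 40.8%, so the lists rose less often or only slightly more often. Like-level rows fell in 49.8%, 36.7%, 27.2% and 27.6%, a larger share than in each list. Among the members that rose were DUR3, a urea and polyamine transporter (3.33), FRE2, a ferric reductase (3.04), GIT1, a glycerophosphoinositol transporter (2.81), and HXT1, a low-affinity glucose transporter (2.11). Of 23 meiosis and sporulation genes tested, which are low in haploid cells, 15 rose and none fell (median 1.32, like-level rows 0.78), RIM4 by 2.90 and RED1 by 2.07. Of 22 genes for tubulin, microtubules and spindle poles 7 rose and 3 fell (median 0.25); those that fell were TUB1, TUB2 and TUB3, by 1.34, 2.06 and 1.13.

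The noncoding classes separated into those that rose with weak mRNAs and those that fell. Over all rows tested 35.1% rose and 28.9% fell. Of 1422 nuclear XUT rows tested, out of 1795, 694 rose and 146 fell, with a median of 0.79. Of 734 SUT rows 411 rose and 71 fell (median 0.96). Summed over all rows of the table, XUTs had 342038 and 347767 normalised reads in xrn1Δ cells, against 154057 to 216292 in wild-type cells, and SUTs 156780 and 158500, against 56976 to 66363. The class sums did not overlap between strains. XUTs were defined by their sensitivity to Xrn1 in earlier work, so their direction is no independent observation.

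The size of the XUT change was not set apart from that of mRNAs at low levels. At a wild-type level of 20 to 40 normalised reads the median was 0.59 for 345 XUT rows, 0.81 for 171 SUT rows and 0.86 for 94 coding rows. At 40 to 80 it was 0.91 for 253 XUT rows, 0.79 for 211 SUT rows and 0.88 for 149 coding rows. At 160 to 320 the order differed, with 1.46 for 72 XUT rows, 1.46 for 56 SUT rows and 0.63 for 563 coding rows, and 75.0%, 73.2% and 58.1% of them rose. No test of these differences between classes was made. Only 1422 of 1795 nuclear XUT rows passed the filter on low values, and a row with few wild-type reads passes more easily if it is high in a mutant.

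Among XUTs at the named levels the largest rise was that of XUT0988 (chr2:643563-645008, minus strand), with 180 and 193 normalised reads in xrn1Δ cells, against 5.57, 3.41, 4.88 and 0.914 in wild-type cells (log2 5.46 ± 0.51, adjusted p = 9.7e-07). XUT1396 (chr10:605994-607434, minus strand) had 1277 and 1218, against 29.3, 29.0, 115 and 57.6, and shares nearly all its bases with SUT643, so the rows count the same reads. XUT1132 rose by 4.02. SUT rows that lay inside an XUT row rose more often, 287 of 477, than the others, 124 of 257; this difference was not tested. XUT1065 fell by 2.98; its row lies inside that of CUT503, which fell by 2.76.

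CUTs went against mRNAs of like level. Of 760 CUT rows 110 rose and 213 fell, with a median of −0.32, where coding rows of like level had 0.85. That match is coarse, since 732 CUT rows lay in the lowest coding bin. The median wild-type mean was 62.1 in that bin and 15.2 for CUT rows. In the narrower range of 10 to 20 normalised reads the medians were −0.22 for CUT and 0.71 for coding rows, and at 20 to 40 they were −0.24 and 0.86. Weak CUT rows could also pass the filter by being high in rrp6Δ cells. With equal coding totals the CUT median turned round to 0.39, below the XUT, SUT, divergent, dubious and coding medians and above those of the structural RNA classes. CUT234 (chr11:364601-364745, plus strand) had 16.0 and 25.9 normalised reads in xrn1Δ cells, against 160, 218, 205 and 152 in wild-type cells (log2 −3.09 ± 0.22, adjusted p = 9.7e-08). CUT025 (chr2:429669-431781, plus strand), which runs antisense to the phosphatase gene PHO5, had 1425 and 1573, against 357, 271, 285 and 384, and rose by 2.22. Rows divergent from genes had 554 higher and 460 lower of 1946, with a median of 0.11.

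**Figure D5:**
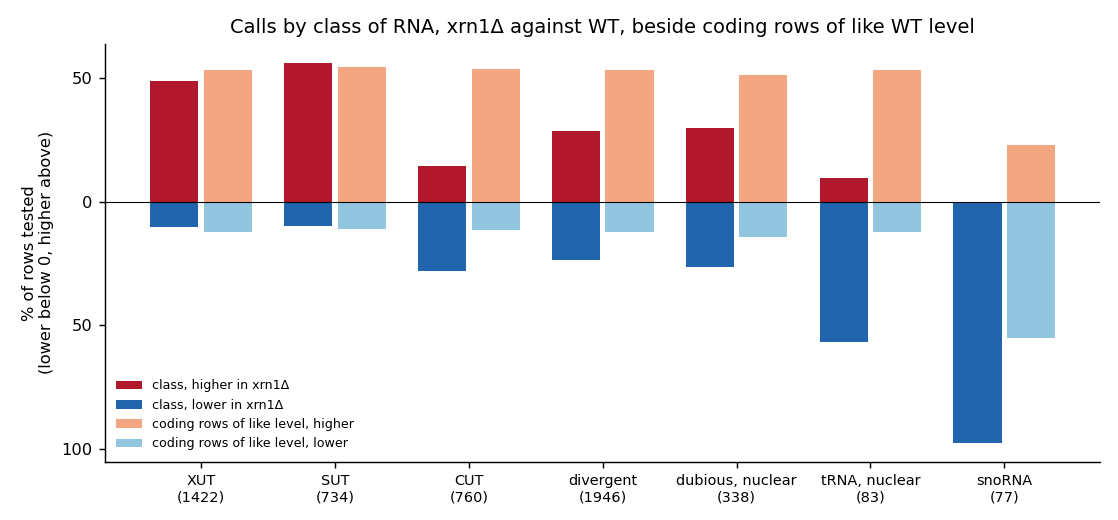
Percent of rows called higher (above 0) and lower (below 0) in xrn1Δ cells for each class (dark bars, left) and for coding rows of like WT level (pale bars, right). CUT, divergent, dubious, tRNA and snoRNA rows are called lower more often than coding rows of their level, and XUT and SUT rows slightly less often.

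Most stable structural RNAs were low. Of 77 small nucleolar RNAs, which guide the modification of rRNA, 75 fell and none rose, with a median log2 change of −2.46 beside −0.56 for coding rows of like level and −1.19 for coding rows of like level per base. snR81 had 271 and 204 normalised reads in xrn1Δ cells, against 9549, 5561, 4287 and 3609 in wild-type cells (log2 −4.50 ± 0.35, adjusted p = 5e-07). All 6 spliceosomal RNA rows fell; the rows of the short and long form of U5 hold identical values and count the same reads. The signal recognition particle RNA SCR1 had 28810 and 12764 normalised reads in xrn1Δ cells, against 1490402, 1337335, 1238996 and 1125774 in wild-type cells (log2 −6.07 ± 0.90, adjusted p = 0.00011). The 2 xrn1Δ libraries differed by more than 2-fold for it. In the other G1 mutants SCR1 ran between 45120 and 1727959 normalised reads, so the row varied widely outside xrn1Δ as well. RPR1, the RNA of nuclear RNase P, and TLC1, the telomerase RNA, fell by 3.26 and 2.59. Of 83 nuclear tRNA rows tested, out of 275, 8 rose and 47 fell. Summed over all nuclear tRNA rows the strains overlapped, with 9336 and 7934 normalised reads in xrn1Δ cells, against 5944 to 16802 in wild-type cells.

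Some noncoding RNAs with known roles rose. ITS1-1, the internal spacer cut out of the rRNA precursor, parts of which are known substrates of Xrn1, had 164 and 149 normalised reads in xrn1Δ cells, against 39.0, 22.2, 39.0 and 2.74 in wild-type cells (log2 3.03 ± 0.91, adjusted p = 0.011). Its call was lost without either xrn1Δ library (adjusted p = 0.0653 and 0.0558). It was the only one of 12 nuclear rRNA rows to rise, and 10 fell. These values remain after rRNA depletion. Summed over all nuclear rRNA rows, they were 17552 and 15010 normalised reads in xrn1Δ cells and 28839 to 136674 in wild-type cells. In the other G1 mutants the sums ran from 9477 (an rrp6Δ library) to 232122, so low sums were not particular to xrn1Δ cells. ICR1, a long RNA transcribed across the promoter of the adhesin gene FLO11 (MUC1 in the table), had 1922 and 2072 normalised reads in xrn1Δ cells, against 344, 372, 449 and 282 in wild-type cells (log2 2.48 ± 0.17, adjusted p = 6.6e-08). FLO11 itself rose by 3.64. SRG1, an RNA that represses the serine synthesis gene SER3 downstream, rose by 1.00, while SER3, looked up after the values were seen, differed by 0.50 ± 0.24 and did not pass (adjusted p = 0.0842).

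A paired look at sense and antisense transcripts asked whether genes under an antisense XUT were lower. An XUT on the other strand covered at least 50% of 535 nuclear coding rows, of which 221 rose (41.3%) and 135 fell (25.2%). Of rows of like level without such an XUT, 44.8% rose and 21.5% fell. Their median of 0.32 was close to the 0.35 of rows of like level without such an XUT. Where the XUT itself rose, 302 rows, 136 genes rose (45.03%) and 71 fell (23.51%). Of like-level rows 46.27% rose and 19.30% fell, and the medians were 0.42 and 0.43. Where the XUT covered at least 90% of the frame, 313 rows, 36.74% of genes rose and 28.75% fell. Of rows of like level without such an XUT, 44.02% rose and 22.48% fell, and the medians were 0.23 and 0.35. Genes under an antisense XUT thus fell somewhat more often than like-level rows. These differences in shares were not tested. Single pairs did go in opposite directions. XUT1678 (chr15:219140-220559, minus strand), which covers all of ARG1 (chr15:219211-220473, plus strand), had 447 and 436 normalised reads in xrn1Δ cells, against 59.9, 71.6, 107 and 127 in wild-type cells, and rose by 2.32 where ARG1 fell by 4.34. XUT1654 rose by 2.88 over FRE4, a ferric reductase relative, which fell by 3.53. FRE4 had 96.9 and 80.1 normalised reads in xrn1Δ cells, against 2789 and 2155 in wild-type replicates 1 and 2 and 442 and 419 in replicates 3 and 4. XUT0335, XUT0909 and XUT1034 rose by 2.70, 1.52 and 0.75 over STR3, YPR027C and INH1, which fell by 2.46, 3.01 and 2.43. The call of XUT1034 was lost without xrn1Δ replicate 1 (adjusted p = 0.0851). These 5 were the largest falls of the 71.

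Reads of a transcript outside its open reading frame were set against those inside. Among 2639 genes with enough reads, 103 had a higher ratio (3.90%) and 74 a lower one (2.80%), with a median of 0.04 on the log2 scale. Apart from the 10% of genes at either end, the differences lay between −0.63 and 0.96. The largest rise was XRN1, whose open reading frame is deleted and whose flanks remained at 186 and 187 normalised reads, against 385 to 538 in wild type. ODC2, a mitochondrial carrier, had 1552 and 1321 normalised reads outside the frame in xrn1Δ cells, against 131, 205, 203 and 175 in wild-type cells, while the frame itself differed by −0.47 and did not pass. Its ratio rose by 3.49 ± 0.39 (adjusted p = 0.00014). ARR2, RPS14B and PHO5 followed with 3.34, 3.15 and 3.08. YFR016C had 4.37 and 4.71 outside reads in xrn1Δ cells, against 32.0, 27.3, 49.6 and 53.9 in wild-type cells, and its frame rose by 0.89, so that the ratio fell by 3.75. RAD7, HEM4, PDR12 and YDL199C followed. Without xrn1Δ replicate 1 the counts were 33 and 25, and without replicate 2 they were 26 and 22.

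Set against the rrp6Δ mutant, which lacks the nuclear exosome subunit, the classes took another order. These contrasts use the same xrn1Δ libraries as those with wild type. Of coding rows 1553 were higher in xrn1Δ than in rrp6Δ cells (27.8%) and 1591 lower (28.5%). Over all rows the shares were 23.5% and 32.5%. Of 760 CUT rows 10 were higher and 617 lower, with a median of −2.76. CUTs are known as substrates of the exosome with Rrp6, so this direction is no independent observation. The filter took the mean over all 17 libraries, so rows high only in rrp6Δ cells could pass it. Of the CUT rows tested, 61 had a wild-type mean under 5 and 167 one of 5 to 10. Of 1422 XUT rows 273 were higher and 504 lower (median −0.39), and of 734 SUT rows 190 were higher and 213 lower (median −0.13). Nuclear tRNAs had a median of −2.79 and small nucleolar RNAs of −2.64. The M/G1 genes rose against rrp6Δ too, by a median of 1.16 with 9 of 17 called, and so did nonsense-mediated decay targets, by 0.52 with 8 of 18. Against the mean of the rad50, mre11, rrp6 and ku70 deletions and the mre11 point mutant, 1822 coding rows were higher (32.7%) and 1785 lower (32.0%). In that contrast 129 of 131 ribosomal protein genes and 36 of 38 Gcn4 targets were lower, 49 of 68 mitochondrial ribosomal protein genes were higher, and all 77 small nucleolar RNAs were lower, where over all rows 30.9% were higher and 30.3% lower. EDC1 was higher by 2.24, DHH1 by 1.69, STN1 by 2.07, YRA1 by 2.08 and PDR5 by 1.94 than in the other G1 mutants.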

How the data were processed

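RNA libraries were mapped with STAR 2.5.3 and handled with SAMtools 0.1.19 and DESeq2 on build R64, per the submitters' processing notes; the counter is not given in the sources used here. The authors deposited 1 table of signal per row and library: read counts divided by 1 size factor per library, as the values show. Whole reads were recovered in 16 of 17 RNA libraries (100% of values within 0.02 of a whole read); for ku70 the step lay near 1 and none were claimed; 33 other columns of the table were not used. The main test was limma 3.58.1 (trend and robust options) on log2(value + 1) in 17 libraries of 8 groups, for 16559 of 20318 rows with a mean of at least 10, adjusted over all rows. edgeR 4.0.16 and DESeq2 1.42.0 on recovered reads were alternatives. The limma fit of xrn1Δ against wild type was tested on simulated counts. The other contrasts, the ratio outside the frame, edgeR and DESeq2 were not tested in this way. Rows of like level are coding rows in the same of 10 wild-type bins, list members left out. An antisense XUT covers at least 50% of the frame; reads outside the frame are those of the transcript row minus those of the coding row.

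Genes were named by a rule: the 15 coding rows of each direction with the largest log2 change among those past the threshold, with no overlap between strains and a mean of at least 100 in the higher strain; up to 3 per direction of each of 39 lists by adjusted p; up to 5 per direction of each RNA class; the 5 largest antisense pairs and outside-frame changes; decay factors and markers whatever their values. The 15 falls so named were mitochondrial rows. 3 listed symbols matched no row. This comparison and the gene lists were chosen with earlier results of these data known; which libraries enter follows from the labels. Counting error alone is small at these depths: 1 read is worth 0.364 and 0.337 in xrn1Δ libraries and 0.813 to 1.71 in wild-type libraries. The ChIP and MicroC samples were not analysed here, and no gene or promoter sequence is shown. 1 gene of the G1/S list is not reported here by name.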

Additional observations from a re-analysis of the deposited data

Results flagged for a closer look

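In 180 groups of 4 wild-type libraries examined with Dixon's test at the 95% level, 16 had 1 library far from the other 3; chance flags about 1 in 20 groups. No explanation was tested for any of them. Wild-type replicate 1 was the library apart in 10 of these groups. Its mean over the G1/S list lay 1.389 log2 units above the wild-type mean. Its normalised reads were high for CLN2 (1423), CLB5 (621.4), CLB6 (358.1), RNR1 (15604), SWI4 (1333), GUA1 (23793) and DBP2 (16455), and low for IMD2 (6983). The 100 most abundant mRNAs took 39.14% of its nuclear coding reads. Wild-type replicate 2 stood apart for DSE2 (233.6 normalised reads), PUF3 (1451), MRPS8 (315.5) and ATP17 (2062). Wild-type replicate 3 stood apart for HTB1 (822.2) and MF(ALPHA)1 (4.066, the other 3 at 0). The xrn1Δ group of 2 libraries is too small for the same test.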

How the results depend on the processing

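The count of coding rows kept within 1.5 times its value with DESeq2, edgeR, TMM, other filters and pseudocounts, and without any 1 library (1534 to 1983 higher, 1540 to 1856 lower). It moved with an added minimum change of 1 log2 unit, to 823 higher and 958 lower against wild type, 564 higher and 783 lower against rrp6Δ and 543 higher and 796 lower against the other mutants. With equal coding totals, added after the data were seen, it was 3625 higher and 770 lower, 3011 higher and 713 lower, and 3401 higher and 778 lower. The same scaling gave 47 XUT and 28 SUT rows lower, 258 higher and 106 lower for CUTs and 1040 higher and 166 lower for divergent rows, and against rrp6Δ 424 XUT and 26 CUT rows higher. A filter at a mean of 50 left 352 higher and 60 lower for XUTs, 39 SUT rows lower, 39 higher and 78 lower for CUTs, 256 higher and 331 lower for divergent rows, and 10 tRNAs lower; against rrp6Δ it left 171 higher and 182 lower for XUTs and 2 higher and 141 lower for CUTs. Without a filter 74 tRNAs were lower, and with the added minimum 291 divergent rows were. CUT rows higher than in rrp6Δ were 16 with TMM and 24 with only the groups compared in the fit. Reads outside the frame were higher in 64 genes with a mean of at least 50 there, and with a pseudocount of 8 higher in 183 and lower in 132. Leaving out 1 library in turn gave 91 to 149 XUT rows lower, 61 to 110 CUT rows higher and 141 to 221 lower, 358 to 559 divergent rows higher, 26 to 108 genes with a higher and 22 to 87 with a lower ratio outside the frame, and 7 to 13 decay targets higher; the lowest counts came without xrn1Δ replicate 2, or without replicate 1 for XUTs, where the spread of the remaining library came from the other groups. CUT rows higher than in rrp6Δ were 4 without either xrn1Δ library. Of the decay targets 6 rose by at least 1 log2 unit. The gap between the lowest and highest bin of coding rows was 2.12 with bins by the other mutants, and genes under an antisense XUT differed from like-level rows by 0.0683 for any overlap and by −0.12 for 90%. The causes were not tested. Same-numbered xrn1Δ and wild-type libraries had residual correlations of −0.21 and −0.13, so the numbers did not pair them; with the replicate block 2000 coding rows were higher and 1887 lower, and 112 genes had a lower ratio outside the frame. Single genes turned round with equal coding totals: RRP6 (0.0575), RAT1 (0.18), DCP1 (0.40), PAT1 (0.42), LSM1 (0.76), LSM2 (0.61), LSM6 (0.38), LSM7 (0.10), MFA1 (0.60), ASG7 (0.29), STE3 (0.69), HTA1 (0.70). With the replicate block, and with wild-type replicates 1 and 2 alone, these did: ASG7 (0.0687), STE3 (0.12), CLB5 (−0.39), CLB6 (−0.24), HTA1 (0.13). With wild-type replicates 3 and 4 alone these did: EDC2 (−0.23), MFA1 (0.20), BAR1 (−0.00347). With DESeq2, edgeR or median-of-ratios scaling these did: EDC3 (−0.00483 with median of ratios), CLB5 (−0.17 with DESeq2), CLB5 (−0.16 with edgeR), CLB6 (−1.02 with edgeR). Without 1 library these crossed 0: BAR1 (−0.0299 to 0.31), CLB5 (−0.11 to 0.47), EDC2 (−0.14 to 0.24), EDC3 (−0.0193 to 0.0665), HTA1 (−0.21 to 0.0899), LSM1 (−0.0594 to 0.0182), STE3 (−0.26 to 0.15). Calls lost without 1 library or under another setting are given beside SWI4, UPF3, STE6, LSM6, PAT1, ITS1-1, IMG1, RSM7, HOR7 and XUT1034; DCS1 also lost its call without xrn1Δ replicate 1 (adjusted p = 0.0708), and SCD6 and CCR4 lost theirs with equal coding totals (adjusted p = 0.601 and 0.867). Of the genes that turned round, RRP6, RAT1, PAT1, LSM6 and LSM7 had passed the threshold. Depth limits the low rows most, since 1 read weighs more in wild-type libraries.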
